A study of Homo sapiens with 4 samples.

Results

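Double-stranded RNA captured with the J2 antibody was read on both strands of the same stretch of genome at 2404 stranded regions, which form 1202 pairs of 1 plus-strand and 1 minus-strand region. A region was included when it lay off the mitochondrial genome, had a count of at least 10 summed over the MPS1i and DMSO J2 libraries, and shared at least 50% of both lengths with an opposite-strand region that also had at least 10. The table held 3814162 stranded regions, of which 200530 reached the count minimum off the mitochondrial genome, so the both-strand regions were 1.2% of these. The regions were thus chosen by their J2 counts and their positions, and what follows from that choice is given as description only. The other 198126 regions at the minimum comprised 60550 that had an opposite-strand region of matching position with fewer than 10 counts, called regions with a low-count partner here, and 137576 that had none.

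The RNA came from NCI-H1944, an established human lung adenocarcinoma cell line labelled wild type. Cells were given BAY-1217389 (MPS1i, 100 nM), which inhibits the mitotic checkpoint kinase MPS1 (gene TTK), or DMSO as solvent, each for 48 h, and were then kept for 24 h after washout. From each culture, 10% of the lysate gave a total RNA library (Input) and the rest was immunoprecipitated with J2. The groups were MPS1i J2, DMSO J2, MPS1i Input and DMSO Input, with 1 library in each, so every difference compares 2 libraries, has no replicate check and carries no p-value.

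An RNA duplex needs 2 complementary stretches. They can lie on separate transcripts, as where convergent genes run past their ends into each other or where an antisense transcript crosses a gene, or within 1 transcript that holds inverted copies of a repeat such as Alu. J2 binds long duplexes of either kind with little regard to sequence, and cytoplasmic duplexes are ligands of the sensors RIG-I, MDA5 and PKR. A region read on both strands has both complementary sequences among the recovered RNA, but the counts do not show whether they were paired with each other.

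The stretches below, each just before an annotated transcription start, lay inside such pairs and held no annotated exon, and they show what was read on both strands. They are RefSeq sequences of GRCh38.p14, given 5' to 3' on the strand of the gene, covering 250 bases before the start, with the bases inside both regions of the pair in capitals. They are shown because at least 200 of their bases lay in both regions.
LOC112267914, chr10:126423799-126424048, plus strand: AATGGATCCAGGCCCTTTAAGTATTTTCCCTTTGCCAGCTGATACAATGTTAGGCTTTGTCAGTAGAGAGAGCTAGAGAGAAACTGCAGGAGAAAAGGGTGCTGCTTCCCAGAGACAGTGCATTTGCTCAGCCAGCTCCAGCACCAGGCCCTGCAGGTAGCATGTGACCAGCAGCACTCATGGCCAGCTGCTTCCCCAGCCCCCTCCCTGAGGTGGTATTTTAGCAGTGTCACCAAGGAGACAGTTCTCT
NUTM2A, chr10:87225198-87225447, plus strand: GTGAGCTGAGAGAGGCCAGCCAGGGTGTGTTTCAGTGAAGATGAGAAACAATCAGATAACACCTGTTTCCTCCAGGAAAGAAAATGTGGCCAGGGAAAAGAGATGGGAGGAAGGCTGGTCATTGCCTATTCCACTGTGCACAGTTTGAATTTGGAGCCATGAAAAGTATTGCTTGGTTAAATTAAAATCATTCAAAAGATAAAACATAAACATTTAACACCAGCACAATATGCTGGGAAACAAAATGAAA
LOC105373652, chr2:142870847-142871096, minus strand: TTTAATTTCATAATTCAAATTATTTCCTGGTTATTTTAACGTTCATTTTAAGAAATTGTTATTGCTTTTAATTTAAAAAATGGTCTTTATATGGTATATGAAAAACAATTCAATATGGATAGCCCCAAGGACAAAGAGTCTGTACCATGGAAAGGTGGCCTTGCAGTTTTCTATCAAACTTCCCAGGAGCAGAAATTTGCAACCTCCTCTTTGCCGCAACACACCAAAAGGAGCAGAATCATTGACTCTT
NR3C1, chr5:143405356-143405605, minus strand: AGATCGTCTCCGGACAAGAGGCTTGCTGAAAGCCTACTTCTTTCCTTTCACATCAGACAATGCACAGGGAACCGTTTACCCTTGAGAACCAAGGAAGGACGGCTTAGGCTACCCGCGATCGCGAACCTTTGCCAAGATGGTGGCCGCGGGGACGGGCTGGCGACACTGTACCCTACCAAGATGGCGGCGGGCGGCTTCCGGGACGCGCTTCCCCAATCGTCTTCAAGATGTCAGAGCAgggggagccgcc
At LOC112267914, the pair had 29 counts on the gene's strand in MPS1i J2 and 32 in DMSO J2, and 1263 counts on the opposite strand in MPS1i J2 and 1458 in DMSO J2. Upstream of NUTM2A, a member of a multi-copy gene family, the pair had 8 counts on the gene's strand in MPS1i J2 and 13 in DMSO J2, and 21 opposite in MPS1i J2 and 48 in DMSO J2. At LOC105373652 the order was turned round, with 83 counts on the gene's strand in MPS1i J2 and 71 in DMSO J2, and 7 opposite in MPS1i J2 and 6 in DMSO J2. Upstream of NR3C1, the glucocorticoid receptor gene, the pair had 3 counts on the gene's strand in MPS1i J2 and 9 in DMSO J2, and 7 opposite in MPS1i J2 and 13 in DMSO J2. The stretches before LOC112267914 and NUTM2A held no CpG, while that before NR3C1 held 20 and was 59.6% G and C. In all, 19 of the 35116 upstream windows in the RefSeq table touched 15 pairs. The TATA-box letters TATAAA, on either strand, were in 4 of the 19 windows and in 10.7% of all windows. The letters of the interferon response element, GAAA, any 2 bases and GAAA again, on either strand, were in 1 of the 19, that of the immunoproteasome gene PSMB10, and in 3.02% of all.

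The summed counts were 6697479 for MPS1i J2, 9793355 for DMSO J2, 4844956 for MPS1i Input and 6381610 for DMSO Input. Both-strand regions held 316415 counts (4.72%) of MPS1i J2 and 484890 (4.95%) of DMSO J2. In the Input libraries, regions in 7 of 11 lung epithelial marker genes had reads, 4089 in MPS1i and 3293 in DMSO, led by the keratin KRT18 with 3386 in MPS1i and 2405 in DMSO, whereas the lung-defining genes NKX2-1, SFTPB and SFTPC and the keratin KRT19 were at 0. Fibroblast markers (5 of 8 detected) had 158 reads in MPS1i Input and 20 in DMSO Input, of which the protease gene FAP had 154 in MPS1i and 15 in DMSO. COL1A1, COL3A1 and THY1 were at 0. Leukocyte markers (4 of 8) had 27 reads in MPS1i Input and 16 in DMSO Input, and endothelial markers (2 of 4) had 29 in MPS1i Input and 24 in DMSO Input; their part in the results below was not tested. Ratios below are log2 of CPM, the count scaled to the summed count of its library, MPS1i over DMSO, and each interval is an exact 95% Clopper-Pearson interval unless another is named. Reads without molecular identifiers are not independent molecules, so intervals cover counting error only.

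Both-strand regions were long and deep relative to the rest. Their median length was 746 bp (range 116 to 8193), against 369 bp for the other regions, and their median summed count was 29, against 19. The stretch shared by the strands of a pair had a median of 631 bp and ran from 110 to 5789 bp. Both strands had identical bounds in 8 pairs, and identical counts in both libraries in 5. The weaker strand, the one with the lower summed count, had exactly 10 counts in 137 pairs, at least 50 in 139 and at least 100 in 45. At the count minimum, the 137 pairs just inside had a median of 37 counts and 27.0% on the weaker strand, and the 190 pairs just outside, with 9 counts, had a median of 36.5 counts and 24.7%. At the overlap minimum, 100 pairs shared 50 to 55% of their lengths and had a median of 78.5 counts, while 102 pairs shared 45 to 50% and had a median of 107. Both limits thus cut through a continuous range. An annotated exon lay in 62 of the 1202 pairs.

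Most both-strand regions lay outside genes or at gene ends, in the annotation deposited with the table. Intergenic regions were 50.7% of both-strand regions (interval 48.7 to 52.7), 47.3% of those with a low-count partner and 21.3% of the other regions as a whole. Introns were 31.2%, against 45.1% and 71.0%. Transcription termination sites (TTS) were 12.5% (interval 11.2 to 13.9), against 4.91% and 3.36%. Promoters made up 3.49%, against 2.18% and 1.82%, and non-coding transcripts 1.62%, against 0.329% and 0.558%. Only 8 regions were annotated 3' UTR, 2 as 5' UTR and 1 as exon.

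**Figure D1:**
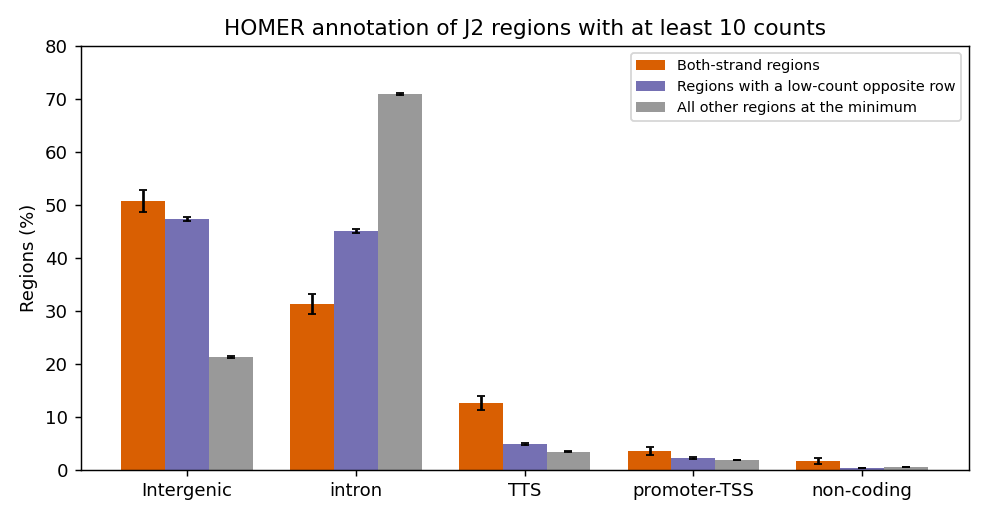
Share of regions (%) in each annotation class for both-strand regions, regions with a low-count opposite partner and all other regions at the count minimum, with 95% Clopper-Pearson intervals as bars. Both-strand regions were 50.7% intergenic and 12.5% TTS, against 21.3% and 3.36% of the other regions.

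Against GENCODE genes, the stretch shared by a pair overlapped genes on both strands in 171 pairs and on 1 strand in 464. It overlapped none in 567 (47.2%), so most pairs touched a gene. Taken singly, 34.0% of both-strand regions lay on the strand of a gene they overlapped, against 73.6% of the other regions. Another 29.5% (interval 27.7 to 31.4) lay within 10 kb past a gene's end on its strand, against 10.3%. Regions within 10 kb before a gene on the opposite strand, where divergent transcription runs, were 5.45%, against 2.05%, and regions purely antisense to a gene were 8.57%, against 4.49%. The remaining 22.5% of both-strand regions, against 9.60% of the others, overlapped no gene and lay in neither of these flanks. Other flanks were not searched, so a gene can still lie near such a region. Read pair by pair, the most frequent arrangement, 248 pairs, was a gene on 1 strand crossed by RNA downstream of a gene on the other. In 200 pairs both strands were of the last kind, so that no gene lay on or near either. In 196 a gene was opposed by antisense RNA outside these flanks, in 175 both strands had a gene, and in 141 both strands lay downstream of genes. Those 141 convergent ends had 33886 counts in MPS1i J2 and 62449 in DMSO J2, a ratio of -0.33 (interval -0.35 to -0.31). Of the 110 deep enough for a call, defined below, 10 were higher and 10 lower, against 10.4% and 10.2% of all 876 such pairs. The pair near ANAPC11, with 2847 counts in MPS1i J2 and 10754 in DMSO J2, carried much of the sum, and without it the ratio was -0.19 (interval -0.21 to -0.17). Downstream regions outside the both-strand set, taken singly, had a summed ratio of 0.29, with 1182 higher and 479 lower of 5795.

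Repeats were more frequent in both-strand regions. A repeat was listed on the region's own strand for 63.5% of both-strand regions, against 47.6% of the others. Among regions of 500 to 1000 bp only, so that length is alike, the shares were 62.3% and 54.0%. Alu elements, short primate retrotransposons present in very many copies, were on 559 both-strand regions, 23.3% against 17.7% of the others. Within the same length range the Alu shares were 22.2% and 16.5%. The endogenous retrovirus families ERV1 (5.57% against 2.64%) and ERVL-MaLR (8.49% against 4.97%) were also more frequent, and satellite DNA was on 0.707%, against 0.0449%. The long retrotransposon L1 was on 13.9%, against 16.8%, so that not every family was more frequent.

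Copies of 1 family in opposite orientation lay within single pairs. A repeat was on both strands in 454 pairs, on 1 strand in 619 and on neither in 129, and in 182 pairs both strands listed the same family. Alu was on both strands in 88 pairs, 7.32% of all pairs (interval 5.91 to 8.94), against 1.22% of the regions with a low-count partner. Where the shorter region of a pair measured 500 to 1000 bp, the shares were 7.65% (40 of 523) and 3.47% (250 of 7200). The 88 pairs had 41065 counts in MPS1i J2 and 76629 in DMSO J2, a ratio of -0.35 (interval -0.37 to -0.33), or -0.24 (interval -0.26 to -0.22) without the same ANAPC11 pair. ERVL-MaLR was on both strands in 21 pairs, L1 in 20 and L2 in 20. How reads that map to several places were counted is not given in the sources used here, and repeat regions depend on it.

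Pairs gathered in few places. They fell in 528 of the 2708 windows of 1 Mb that held any region at the minimum, and the 11 windows with at least 10 pairs held 15.1% of all pairs (181), against 0.962% of the other regions. The 5 fullest windows were next to centromeres or on the short arm of an acrocentric chromosome. They lay on chromosome 4 at 49 Mb (32 pairs), chromosome 22 at 11 Mb (26) and 12 Mb (20), and chromosome 20 at 30 Mb (19) and 29 Mb (14). Within 1 Mb of a region annotated as the centromeric alpha satellite ALR/Alpha lay 14.5% of both-strand regions (interval 13.1 to 15.9), against 4.11% of those with a low-count partner and 3.27% of the others. In pooled counts these 174 pairs were more even between strands: 10.3% were on the weaker strand in MPS1i J2 and 10.9% in DMSO J2, against 4.09% in MPS1i J2 and 3.88% in DMSO J2 for the other 1028 pairs. Pair by pair, over both libraries, the gap was smaller, with a median share of 27.3% against 22.4%. Sequences there are present in near-identical copies, so a read's place is uncertain.

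The pairs with the most counts on the weaker strand were mostly in such places. The deepest, chr22:11916942-11919351 in an annotated intron with long terminal repeat sequence of the MaLR group on both strands (MSTA on plus, THE1D on minus), had 672 plus and 1258 minus counts in MPS1i J2, and 1204 plus and 2305 minus counts in DMSO J2. Its weaker strand held 34.8% in MPS1i J2 and 34.3% in DMSO J2, nearly the same balance. The adjoining pair chr22:11920094-11921808 had 371 plus and 410 minus counts in MPS1i J2, and 690 plus and 831 minus in DMSO J2. The pair chr22:11913891-11916887 departed, with 2127 plus and 246 minus counts in MPS1i J2, and 2176 plus and 608 minus in DMSO J2. There the minus share was 10.4% in MPS1i J2 and 21.8% in DMSO J2. The last pair on this stretch, chr22:11926140-11927935 in L1 sequence, had 480 plus and 260 minus counts in MPS1i J2, and 907 plus and 420 minus in DMSO J2.

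The remaining deep pairs covered the range of balance. At chr20:30641759-30642343, also in MaLR sequence, the strands were even, with 223 plus and 227 minus counts in MPS1i J2, and 365 plus and 359 minus in DMSO J2. At chr4:49573099-49575196 the counts were 195 plus and 184 minus in MPS1i J2, and 368 plus and 622 minus in DMSO J2. At chr7:100209012-100210980, where the meiotic cohesin gene STAG3 on plus and CASTOR3 on minus overlap, the counts were 220 plus and 1570 minus in MPS1i J2, and 386 plus and 2180 minus in DMSO J2. At chr5:136541427-136545072, an intergenic stretch nearest to the channel gene TRPC7 with the endogenous retrovirus HERVH on the minus strand, they were 156 plus and 4213 minus in MPS1i J2, and 322 plus and 6663 minus in DMSO J2. Only 1 of these 8 pairs overlapped a GENCODE gene.

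**Figure D2:**
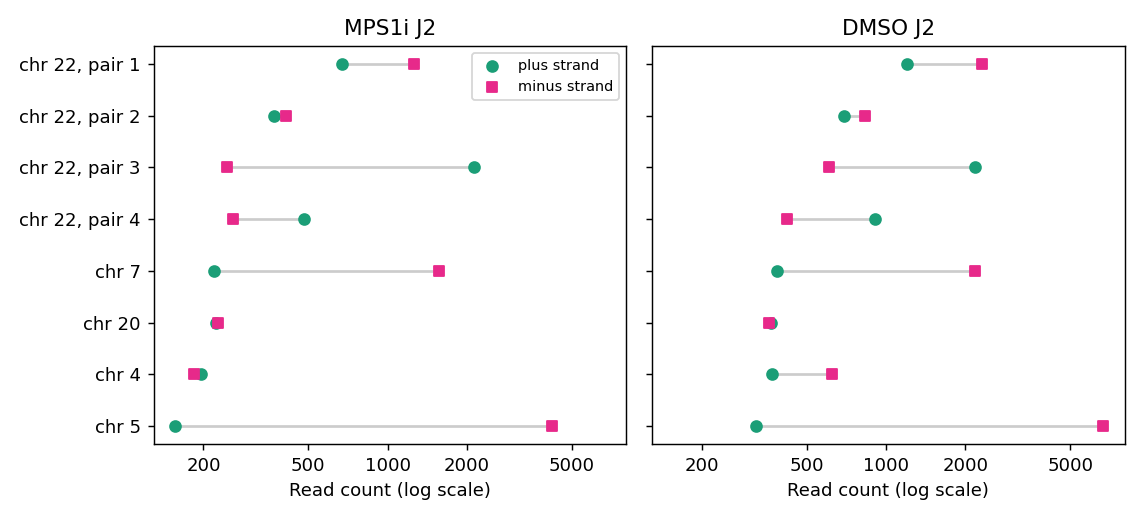
Read counts (log scale) on the plus and minus strand of the 8 pairs with the most counts on the weaker strand, in MPS1i J2 at left and DMSO J2 at right, deepest pair at the top. The chromosome 20 pair was even on both strands (223 and 227 in MPS1i J2), and the chromosome 5 pair was mostly minus (156 and 4213 in MPS1i J2).

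Both strands were rarely read equally. Over all pairs the weaker strand held 15616 of 316415 counts in MPS1i J2, 4.94% (interval 4.86 to 5.01), and 23957 of 484890 in DMSO J2, 4.94% (interval 4.88 to 5.0). Pair by pair, over both libraries, its median share was 22.8% (quartiles 7.64 and 38.0). The median was 18.2% in MPS1i J2 and 19.1% in DMSO J2. The share was at least 40% in 253 pairs, under 5% in 246 and under 1% in 68. The stronger strand was the same in both libraries in 887 pairs, the opposite one in 268, and at least 1 library was tied in 47. Where the stronger strand had at least 1000 counts (151 pairs), the median share was 1.13% (range 0.0583 to 46.1). The 230 one-to-one pairs with such a strand but fewer than 10 counts opposite had a median of 0.163% and a maximum of 0.880%, a ceiling that the count limit itself sets. How much of a low share comes from misassigned strand in library making was not tested.

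**Figure D3:**
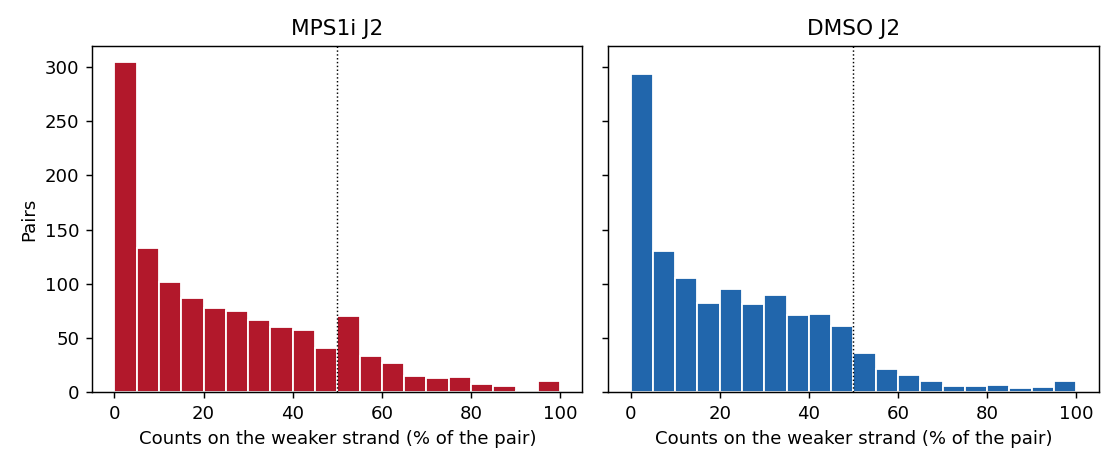
Number of pairs by the share of the pair's counts on the weaker strand (%, bins of 5 points), in MPS1i J2 at left and DMSO J2 at right; the weaker strand is set by the sum of both libraries, so a share in 1 library can pass 50% (dotted line). The medians were 18.2% in MPS1i J2 and 19.1% in DMSO J2.

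In the Input libraries, which took no part in choosing the regions, both strands could be matched on the same strand with at least 50% overlap at 515 pairs (42.8%). There the J2-weaker strand held 5.17% of Input counts in MPS1i (interval 5.03 to 5.31) and 5.68% in DMSO (interval 5.54 to 5.82). In J2 the same pairs had 3.89% in MPS1i (interval 3.80 to 3.97) and 4.15% in DMSO (interval 4.08 to 4.23). J2 counts set which strand is the weaker and its minimum of 10. The lower pooled share in J2 than in Input is therefore a description only. Among the 421 pairs with at least 20 Input counts, the J2-weaker strand was also the weaker in Input in 382, and its median share was 8.88% in Input, against 10.9% in J2. The pooled and the median shares thus ran in opposite directions. Both strands had at least 10 Input counts in 205 pairs. The J2 counts of both-strand regions per Input count, as log2 of CPM, were 0.62 in MPS1i and 0.91 in DMSO as sums, and those of the other matched regions were 0.38 in MPS1i and 0.46 in DMSO. The medians over regions ran the other way between treatments, with 1.12 in MPS1i and 1.05 in DMSO for both-strand regions, and 0.76 in MPS1i and 0.58 in DMSO for the others. J2 depth chose the both-strand regions, so these are a description.

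**Figure D4:**
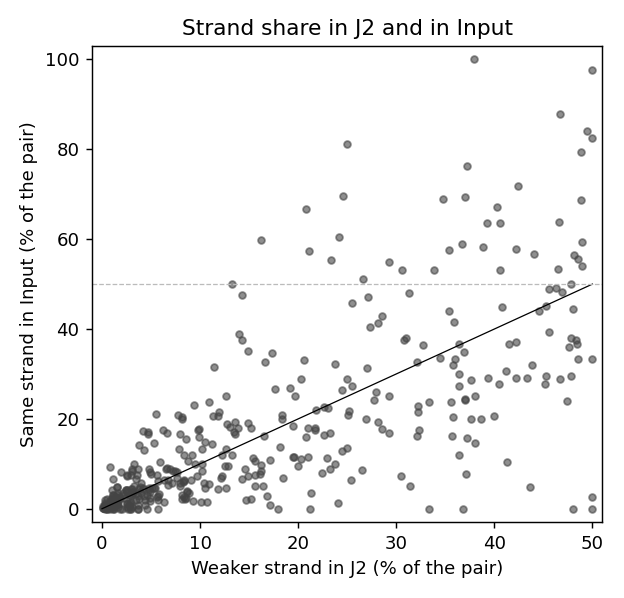
For the 421 pairs with at least 20 Input counts, the share of counts on the J2-weaker strand in J2 (x axis, %) and on the same strand in Input (y axis, %), over MPS1i and DMSO; the solid line marks equal shares and the dashed line 50%. In 382 pairs the strand was also the weaker one in Input.

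Between MPS1i J2 and DMSO J2 the level of both-strand regions as a whole was nearly the same. A region or pair was called when its summed count was at least 50, its CPM differed at least 2-fold and the interval excluded 1. Of 884 both-strand regions deep enough, 98 (11.1%) were higher and 129 (14.6%) lower in MPS1i J2, against 12.5% higher and 27.2% lower among all 36840 such regions. Their median ratio was -0.11, against -0.20 for all. The share of higher among these calls, 43.2%, depended on scaling: TMM gave 123 higher and 99 lower and median of ratios 125 and 96, as these scalings moved the median of all regions up by 0.19 and 0.21. Taken as sums, both-strand regions had a ratio of -0.07 (interval -0.07 to -0.06) and the others -0.09, a sign that turned under both scalings, to 0.13 and 0.14. Pairs, with both strands added, were called higher in 91 and lower in 89 of 876.

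By annotation, the widest gap in the share called lower was in introns. Of 258 intronic both-strand regions, 24 (9.30%) were higher and 48 (18.6%) lower, against 10.9% and 34.9% of other intronic regions. Intergenic both-strand regions were higher in 52 and lower in 65 of 467, against 16.5% and 15.4% of the other intergenic regions. Promoter regions were few: 8 of 23 rose and 1 fell, against 19.4% and 13.7% of other promoter regions. Those higher in MPS1i J2 were annotated to SLCO1B3, AMIGO2, NLK, SH3BP5-AS1, GALNT7, HTATSF1P2, RNF19A and MIR4477A, and were named after their values were seen. The region at RNF19A, a ubiquitin ligase gene, had 126 counts in MPS1i J2 and 36 in DMSO J2, a ratio of 2.36 (interval 1.81 to 2.93). The lower one, with 11 counts in MPS1i J2 and 62 in DMSO J2, was at IKBKG, which encodes the NEMO subunit of the NF-kappa-B kinase and has a near-identical pseudogene.

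Among repeat families, ERV1-bearing both-strand regions had 33715 counts in MPS1i J2 and 37902 in DMSO J2, a ratio of 0.38 (interval 0.36 to 0.40), which was 0.11 (interval 0.08 to 0.13) without the 1 region near TNS4. ERVL-MaLR regions had 37365 in MPS1i J2 and 67646 in DMSO J2, a ratio of -0.31 (interval -0.33 to -0.29). Alu regions had a ratio of -0.05, or -0.14 without the TNS4 region, and L1 regions of -0.01, or -0.03 without the region in ZNF717, all within the shift that scaling makes. By regions called, ERV1 had 11 higher and 6 lower of 57, ERVL-MaLR 9 and 13 of 92, and Alu 24 and 37 of 238. All both-strand regions deep enough were 11.1% higher and 14.6% lower, and all such regions 12.5% and 27.2%. Other regions of the same families were not compared, so whether these values are particular to both-strand regions was not tested.

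Both strands of a pair passed the call in few pairs. Of stronger strands deep enough, 11.5% were higher and 13.0% lower, and of weaker strands 8.63% and 23.0%. Few joint calls can arise at such shares, so their number does not show that the strands changed apart. In 139 pairs both strands had at least 50 counts. Both were higher in 2 pairs and both lower in 4, 1 strand was higher and the other lower in 5, a single strand was called in 52 and neither in 76. The log2 ratios had the same sign in 74 of the 139. Both strands were higher at chr17:40471764-40473554 near the tensin gene TNS4, with 50 plus and 10990 minus counts in MPS1i J2, and 31 plus and 7058 minus in DMSO J2, and at chr6:28311694-28312826 near the zinc-finger gene ZSCAN31, with 38 plus and 66 minus in MPS1i J2, and 21 plus and 14 minus in DMSO J2. The minus strand at TNS4 holds nearly all of that pair's counts. The pairs with both strands called were named after their values were seen.

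Of the pairs lower on both strands, 3 lay downstream of genes on at least 1 strand. Near ANAPC11, a subunit gene of the anaphase-promoting complex, chr17:81884177-81887674 had 13 plus and 2834 minus counts in MPS1i J2, and 46 plus and 10708 minus in DMSO J2. Near IBA57, an iron-sulfur cluster gene, chr1:228183837-228184370 had 40 plus and 8 minus in MPS1i J2, and 174 plus and 56 minus in DMSO J2. Within a gene, chr9:2768113-2769686 in PUM3 had 7 plus and 117 minus in MPS1i J2, and 57 plus and 514 minus in DMSO J2.

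The 5 pairs with strands called in opposite directions included 3 in pericentromeric or acrocentric sequence with no gene on either strand. At chr21:8833289-8835856 the plus strand had 59 counts in MPS1i J2 and 196 in DMSO J2, and the minus strand 336 in MPS1i J2 and 238 in DMSO J2. At chr4:49494736-49495113 the plus strand had 16 in MPS1i J2 and 67 in DMSO J2, and the minus strand 153 in MPS1i J2 and 95 in DMSO J2. At chr22:12114231-12115576 the plus strand had 20 in MPS1i J2 and 68 in DMSO J2, and the minus strand 50 in MPS1i J2 and 31 in DMSO J2. In each of these the plus strand was the lower one in MPS1i J2. In NOP14, a ribosome assembly gene on the minus strand, chr4:2961848-2962604 showed the reverse, with 63 plus and 6 minus counts in MPS1i J2, and 4 plus and 45 minus in DMSO J2. In ERMP1, also on minus, chr9:5777415-5778273 had 48 plus and 15 minus in MPS1i J2, and 30 plus and 70 minus in DMSO J2.

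**Figure D5:**
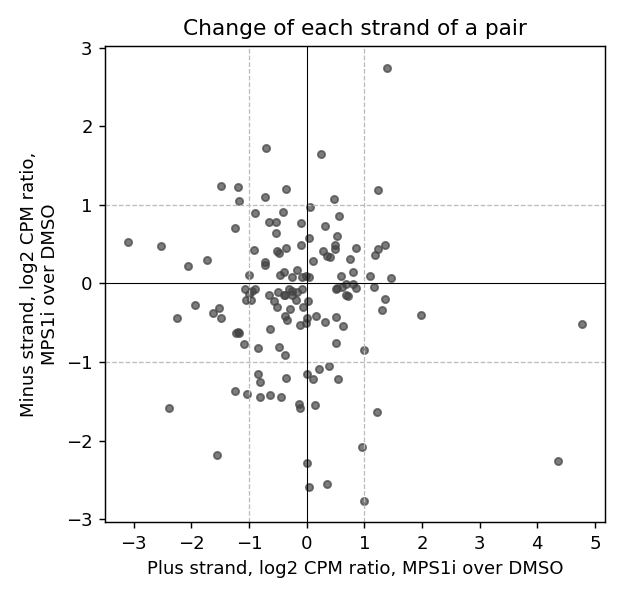
Log2 CPM ratio, MPS1i J2 over DMSO J2, of the plus strand (x axis) and the minus strand (y axis) of the 139 pairs with at least 50 counts on each strand; dashed lines mark 2-fold. The ratios had the same sign in 74 pairs, and 5 pairs had strands called in opposite directions.

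The balance between strands was called different when the ratio of plus to minus counts differed at least 2-fold between the libraries, each library had at least 50 counts in the pair and the 95% delta-method interval excluded 1. This held for 144 of 512 pairs, against 8.93% of all 2039 one-to-one opposite-strand pairs of that depth; a pair with few counts on a strand has a wide interval, and the count rule kept such pairs out of the both-strand pairs, so the 2 shares are not alike in depth. The balance moved toward plus in 71 and toward minus in 73, and toward the weaker strand in 67 and the stronger in 77, so no direction prevailed.

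The firmest change of balance was at chr10:89334793-89335281, where the interferon-induced gene IFIT3 on plus overlaps the span annotated to LIPA, the lysosomal acid lipase gene, on minus. The plus strand had 33 counts in MPS1i J2 and 2 in DMSO J2, and the minus strand 18 in MPS1i J2 and 50 in DMSO J2, a log2 ratio of plus-to-minus ratios of 5.19 (delta-method interval 3.19 to 7.20). Summed over strands the pair had 51 counts in MPS1i J2 and 52 in DMSO J2 and was not called. In ABCC6, a transporter gene on minus with near-identical pseudogenes, chr16:16164063-16165185 had 18 plus and 58 minus counts in MPS1i J2, and 2 plus and 251 minus in DMSO J2. In TBC1D8, a gene on minus, chr2:101076635-101077002 had 22 plus and 28 minus in MPS1i J2, and 1 plus and 62 minus in DMSO J2. In both, the antisense strand was the one read more in MPS1i J2. At chr17:40372897-40373738, nearest to the connexin gene GJD3, the counts were 32 plus and 26 minus in MPS1i J2, and 6 plus and 94 minus in DMSO J2, and in SH3D19, on minus, chr4:151141438-151142389 had 113 plus and 3 minus in MPS1i J2, and 36 plus and 22 minus in DMSO J2. All 5 moved toward plus.

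Of the pairs higher in MPS1i J2, the firmest was also in the IFIT locus. At chr10:89406527-89406885, nearest to IFIT5 and within LIPA, the plus strand, which lies downstream of a gene, had 97 counts in MPS1i J2 and 1 in DMSO J2, and the minus strand 10 in MPS1i J2 and 5 in DMSO J2, a ratio for the pair of 4.70 (interval 3.54 to 6.18). At RMI2, a gene of the BLM helicase complex on plus, 2 neighbouring pairs rose, by 3.67 (interval 3.42 to 3.94) at chr16:11318581-11320022 and by 3.58 (interval 3.27 to 3.91) at chr16:11317277-11318037. The first had 1205 plus and 17 minus counts in MPS1i J2, and 140 plus and 0 minus in DMSO J2, and the second 764 plus and 7 minus in MPS1i J2, and 91 plus and 3 minus in DMSO J2. Nearly all of the rise was on the sense strand. The intergenic pair chr8:99955378-99957026 had 45 plus and 455 minus in MPS1i J2, and 1 plus and 88 minus in DMSO J2. The pair chr5:136530728-136531511 had 8 plus and 328 minus in MPS1i J2, and 9 plus and 54 minus in DMSO J2, and chr17:40469902-40470663, in the same window as the TNS4 pair, had 20 plus and 70 minus in MPS1i J2, and 6 plus and 7 minus in DMSO J2.

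Of the pairs lower in MPS1i J2, the firmest lay at the 45S ribosomal RNA gene RNA45SN1, chr21:8433961-8435731. The plus strand had 1804 counts in MPS1i J2 and 9975 in DMSO J2, and the minus strand 4 in MPS1i J2 and 33 in DMSO J2, a ratio for the pair of -1.92 (interval -1.99 to -1.85). The 11 pairs of this chromosome 21 window (8 to 9 Mb) summed to 2427 counts in MPS1i J2 and 10911 in DMSO J2. This pair carried that difference, and the ratio of the other pairs in the window was 0.0034 (interval -0.15 to 0.15). NEIL3, a DNA glycosylase gene on plus, and AC027627.1 on minus overlap at chr4:177349351-177350545. This pair had 27 plus and 6 minus in MPS1i J2, and 237 plus and 8 minus in DMSO J2, a ratio of -2.34 (interval -2.91 to -1.82). DUSP16, a MAP kinase phosphatase gene on minus, and AC007619.1 on plus overlap at chr12:12490424-12490853. The plus strand, sense to AC007619.1, had 13 counts in MPS1i J2 and 96 in DMSO J2. The minus strand had 0 in MPS1i J2 and 19 in DMSO J2. Where C19orf71 on plus and MFSD12 on minus overlap, chr19:3541389-3542761 had 2 plus and 327 minus in MPS1i J2, and 10 plus and 1478 minus in DMSO J2. Outside genes, chr1:51275975-51276424 had 3 plus and 1 minus in MPS1i J2, and 18 plus and 35 minus in DMSO J2, and chr16:7871435-7872810 had 8 plus and 49 minus in MPS1i J2, and 20 plus and 303 minus in DMSO J2.

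The strand opposite a gene held a larger part of pair counts in MPS1i J2. That strand is called antisense here, also where it lay downstream of another gene. By place, 248 pairs were of that kind and 196 had antisense RNA outside the flanks. The 2 kinds were not compared for this shift. In 464 pairs a gene lay on exactly 1 strand. Antisense counts there were 33142 in MPS1i J2 and 41124 in DMSO J2, and sense counts 89612 in MPS1i J2 and 134444 in DMSO J2, so antisense made up 27.0% in MPS1i J2 and 23.4% in DMSO J2. The log2 ratio of antisense-to-sense ratios was 0.27 (delta-method interval 0.25 to 0.30), which no scaling of the libraries can alter. It was 0.30 without the ZNF717 pair, which held the most antisense counts, between 0.20 and 0.38 with each pair left out in turn, and 0.66 with pairs overlapping by at least 90%. By single strands, antisense was higher in 29 and lower in 15 of 139, while sense was higher in 17 and lower in 36 of 190. A like contrast stood outside the pairs, where regions placed antisense are a narrower class that leaves out the flanks. Of the other regions so placed, 499 were higher and 131 lower of 2082, with a summed ratio of 0.42. Of those placed sense, 2115 were higher and 8813 lower of 24163, with a summed ratio of -0.25. The summed ratio of the others was also above 0 downstream of genes (0.29), before genes on the opposite strand (0.32) and with no gene (0.23). A higher antisense than sense ratio is therefore not particular to both-strand pairs, and outside them it was not particular to antisense. Antisense was the stronger strand in 200 of the 464 pairs. At the 191 of these pairs matched in Input, the antisense share was 25.2% in MPS1i Input and 23.3% in DMSO Input, and 20.3% in MPS1i J2 and 18.1% in DMSO J2. The log2 ratio of ratios there was 0.15 (delta-method interval 0.09 to 0.22) in Input and 0.21 (interval 0.17 to 0.25) in J2.

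Protein-coding genes with a pair numbered 400, of which 271 had 1. The gene with most pairs, PTP4A1, a tyrosine phosphatase gene on chromosome 6, had 9, with 85 sense counts in MPS1i J2 and 393 in DMSO J2, a ratio of -1.66 (interval -2.02 to -1.32), and 891 antisense counts in MPS1i J2 and 1056 in DMSO J2, a ratio of 0.30 (interval 0.17 to 0.43), or 0.11 (interval -0.08 to 0.30) without the pair at chr6:63566230-63568652. ELF2, an ETS-family transcription factor gene on chromosome 4, had 8 pairs, with 761 sense counts in MPS1i J2 and 1436 in DMSO J2, and 1056 antisense counts in MPS1i J2 and 595 in DMSO J2. Its antisense ratio was 1.38 (interval 1.23 to 1.52), mostly from the pair at chr4:139046586-139048306, without which it was 0.75 (interval 0.35 to 1.16). The mitochondrial fission regulator gene MTFR1 had 7 pairs, and its convergent neighbour PDE7A, a cyclic AMP phosphodiesterase gene, had 6. BCCIP and DHX32 overlap tail to tail and share their 6 pairs, with 84 counts on the BCCIP strand in MPS1i J2 and 53 in DMSO J2, and 164 on the DHX32 strand in MPS1i J2 and 229 in DMSO J2. OIP5, a centromere protein gene on minus, lies within the span of AC087721.2 on plus, and they share 6 pairs. These had 17 counts on the OIP5 strand in MPS1i J2 and 87 in DMSO J2, and 101 on the other strand in MPS1i J2 and 153 in DMSO J2. AC084337.2 and SPAG1, a dynein assembly gene, also had 6 each.

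Ranked by antisense counts, ZNF717, a zinc-finger gene, stood first with 8496 in MPS1i J2 and 11151 in DMSO J2, against 160 sense counts in MPS1i J2 and 283 in DMSO J2. APC2, a relative of the Wnt regulator APC, had 3251 antisense counts in MPS1i J2 and 5272 in DMSO J2. PRKRA, which encodes PACT, a dsRNA-binding activator of the kinase PKR, had 3929 antisense counts in MPS1i J2 and 2235 in DMSO J2, a ratio of 1.36 (interval 1.29 to 1.44), and 20 sense counts in MPS1i J2 and 34 in DMSO J2. The plus-strand gene AC009948.1 is annotated there, so these reads are antisense to PRKRA and sense to a noncoding neighbour. Of the 10 genes ranked so, PRKRA alone had an antisense ratio past 2-fold. The rest were NQO2, GCFC2, STAG3, IL17RB, TAF1D, CCDC65 and VPS35L, with antisense ratios between -0.63 at CCDC65 and 0.30 at NQO2. At GCFC2 the sense strand had 21 counts in MPS1i J2 and 154 in DMSO J2, and at VPS35L 17 in MPS1i J2 and 135 in DMSO J2.

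Of the 166 genes in the 6 lists on dsRNA, interferon, p53, mitosis, replication and KRAB zinc fingers, 4 (2.41%) held a pair, near the 2.01% of all 19907 protein-coding genes. Of 42 interferon-stimulated genes only IFIT3 did, with 3 pairs that had 90 counts in MPS1i J2 and 87 in DMSO J2. In all 3 the plus strand, that of IFIT3, was read more in MPS1i J2, with 33, 16 and 11 counts, against 2, 2 and 0 in DMSO J2. The minus strand, that of LIPA, had 18, 4 and 8 in MPS1i J2, against 50, 23 and 10 in DMSO J2. Only the first was deep enough for the call in each library. Of 24 RNA sensing genes PRKRA alone had a pair, which was higher. Of 28 replication genes TYMS, the thymidylate synthase gene, had 1 pair, with 22 counts in MPS1i J2 and 30 in DMSO J2. Of 22 KRAB zinc-finger genes ZNF544 had 2 pairs, with 153 counts in MPS1i J2 and 416 in DMSO J2, 1 of them lower. That pair, at a ratio of -1.01, no longer passed the call under TMM (-0.82) or median of ratios (-0.80). None of 20 p53 target genes and 30 mitosis genes held a pair.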

How the data were processed

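Total RNA (Input) and J2-bound RNA were sequenced from 1 MPS1i and 1 DMSO culture, and groups were taken from the sample titles. The values the authors deposited are whole-number read counts per stranded region, in 1 table for J2 and 1 for Input, each region with position, strand, HOMER annotation and same-strand Repeat, per the file headers. Trim Galore, Trimmomatic, cutadapt, STAR, featureCounts, HOMER and the build GRCh38 (hg38) are named, without versions, per the submitters' processing notes. Libraries were made with a stranded total RNA kit, per the labels' protocols. The calling of regions, the treatment of duplicate and multi-mapping reads and the strand setting of the counting are steps not given in the sources used here. Coordinates are as deposited, and starts may be counted from 0.

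Opposite-strand regions were intersected with bedtools 2.31.1, and every both-strand region had exactly 1 partner, so pairs are one to one. Counts were scaled to the summed count of each library (CPM). Intervals came from SciPy 1.17.1, and a pseudocount of 0.5 was used for medians and for changes of balance. Genes are those of GENCODE release 29. TMM factors (edgeR 4.0.16) and median-of-ratios factors (DESeq2 1.42.0), over regions with at least 50 counts, were alternatives, beside other count minimums, overlaps and folds. With 1 library per group no model was fitted and no p-value computed. The call rules were tested on simulated data. Input regions were matched on the same strand by at least 50% of both lengths. Named pairs are the 8 with the deepest weaker strand, the 6 higher and 6 lower with the interval bound nearest to 0 farthest from it, the 5 such changes of balance, and up to 3 deepest per gene list; named genes are the 10 with most pairs and the 10 with most antisense counts. The regions, lists and rules were chosen with earlier results of these data known. No genome was used here, so base composition of the pairs was not computed and sequences come from the RefSeq promoter table alone. A pair lower on both strands is counted but not reported here by name.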

Additional observations from a re-analysis of the deposited data

How the results depend on the processing

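No paired analysis was possible because each group held 1 library. With a minimum of 20 counts, 54 regions were higher, the summed ratio was -0.076, the weaker-strand share (MPS1i J2 minus DMSO J2) moved to -0.26 points against -0.0054, and intergenic regions were 54.2%. A summed CPM minimum of 1.2 gave a difference of 0.17 points. With 90% overlap, 24 regions were higher and 46 lower, the summed ratio was -0.19, 51 pairs differed in balance, the antisense ratio of ratios was 0.66, and intergenic regions were 57.3%; fewer regions remain by construction (780). At 90% overlap with Input, the weaker strand held 3.87% of MPS1i Input and 4.96% of DMSO Input counts. Without the chromosome 21 ribosomal RNA window, an alternative chosen after seeing the data like those on the intergenic share, the summed ratio was -0.046. TMM and median of ratios turned it to 0.13 and 0.14. Without a count filter 353 were higher, 349 lower and 347 pairs differed in balance; with at least 100 counts these were 50, 59 and 80. A 1.5-fold limit gave 167 higher and 215 lower. Apart from those fewer or more tested regions, the cause was not tested. Over the other scalings, 73 of the values of named pairs kept direction and call, 4 no longer passed the call and 16 moved by more than their interval. No called pair changed sign, but the uncalled pairs chr5:136541427-136545072 (-0.13) and chr20:30641759-30642343 (-0.14) did, to 0.07 and 0.06 under TMM and to 0.08 and 0.07 under median of ratios. Leaving out the deepest pair or region of a group, given beside its sum, was also chosen after seeing the data. Depth limits the weaker strands, of which 139 reached 50 counts. The weaker strand was at 0 in MPS1i J2 in 32 pairs and in DMSO J2 in 28, where 0 counts allow up to 3.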

Other observations

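Beyond the windows described, 13 pairs lay in the 9 Mb window of chromosome 21 (1512 counts in MPS1i J2 and 2705 in DMSO J2) and 13 in the 63 Mb window of chromosome 6 (1338 in MPS1i J2 and 1886 in DMSO J2). The 20 Mb window of chromosome 12 held 12 pairs with 1812 counts in MPS1i J2 and 1430 in DMSO J2, a log2 CPM ratio of 0.89 (interval 0.79 to 0.99). The 65 Mb window of chromosome 8, with MTFR1 and PDE7A, held 11 pairs with 6536 counts in MPS1i J2 and 16495 in DMSO J2, a ratio of -0.79 (interval -0.83 to -0.75). The 139 Mb window of chromosome 4, with ELF2, held 10 pairs with 1887 counts in MPS1i J2 and 2094 in DMSO J2, a ratio of 0.40 (interval 0.31 to 0.49), which turned to -0.23 (interval -0.35 to -0.11) without the pair at chr4:139046586-139048306.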
